A study of Mus musculus with 6 samples.

Results

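The Fos and Jun genes encode the subunits of AP-1, a family of transcription factors that bind DNA as pairs. Fos proteins need a Jun partner to bind, whereas Jun proteins can also pair among themselves. In cortical neurons Fos, Fosb and Junb are immediate early genes, which synaptic activity, stress and light or sensory input switch on for a short time without new protein synthesis, and Jund is transcribed at a steadier level. Fos RNA is made and degraded quickly, so its level in a dissected tissue is a record of recent activity.

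Here 6 members of the family were followed in the prefrontal cortex (PFC), namely Fos, Fosb and Fosl2 on the Fos side and Jun, Junb and Jund on the Jun side. They were taken by symbol from the 22000 symbols of the count table, and all 6 were among the 13185 genes that passed a filter on low values (1 count or more per 1000000, CPM, in each of the 3 mice of either group). The family was put together with the difference between control and ELS mice already known, because the study had listed Fos among its differentially expressed genes (DEGs). The members were thus selected on the counts of these same 6 mice, and the fold changes and adjusted p of the members are therefore given as a description and support nothing further.

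RNA-seq was carried out on the PFC of male C57BL/6N mice at 9 weeks of age, with 3 control mice, 3 ELS mice and 1 library per mouse. Early life stress (ELS) was social isolation: ELS mice were housed singly from weaning into adolescence in cages with a filter cap, and control mice were housed in groups in cages without one, so that isolation and the cap cannot be told apart. ELS and control mice came from the same litters, and mice of the study went through behavioral tests and stayed in their housing until dissection. The hour of dissection and the interval since the last test are not given in the sources used here. Total counts ran from 28405795 to 35241743, and the 3 ELS libraries were the deepest. Slc17a7 and Tbr1, genes of excitatory neurons throughout the cortex, had at least 1480 and 149 CPM in every mouse, which checks the label for cortex but not for its prefrontal part. The summed level of 6 striatal projection neuron genes was highest in control mouse 3 (370 CPM) and ELS mouse 1 (343 CPM) and ran from 202 to 247 CPM in the other 4 mice. Control mouse 3 also had the highest sum of oligodendrocyte genes, at 7549 CPM against 5660 to 6619 CPM in the other 5 mice.

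Transcription of the activity-dependent members starts at promoters that are read by CREB and by serum response factor. CREB binds the cAMP response element (CRE), and serum response factor binds the CArG box. Promoter sequences of 4 members are shown. TGACG, the core of the CRE, is in those of Fos, Fosb and Junb and not in that of Jun. Those of Fosl2 and Jund lack it too and are not shown. Fosl2, like Fos, Fosb and Junb, had a lower mean in ELS mice. Each line holds the 250 bases before the RefSeq start site, 5′ to 3′ on the strand of the gene, in GRCm38.p6. Capitals mark TGACG, the core of the CRE, and the TATA box TATAAA.
Fos, chr12:85473640-85473889, plus strand: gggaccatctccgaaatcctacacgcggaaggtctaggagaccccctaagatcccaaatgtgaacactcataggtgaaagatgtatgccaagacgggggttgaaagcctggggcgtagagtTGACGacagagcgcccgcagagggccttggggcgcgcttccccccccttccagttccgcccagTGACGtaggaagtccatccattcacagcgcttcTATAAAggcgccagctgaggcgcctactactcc
Fosb, chr7:19310046-19310295, minus strand: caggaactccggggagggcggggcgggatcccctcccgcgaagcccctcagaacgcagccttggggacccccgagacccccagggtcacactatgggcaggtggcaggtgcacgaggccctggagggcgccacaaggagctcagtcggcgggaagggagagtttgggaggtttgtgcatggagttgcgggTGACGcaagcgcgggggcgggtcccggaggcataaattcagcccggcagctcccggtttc
Junb, chr8:84978749-84978998, minus strand: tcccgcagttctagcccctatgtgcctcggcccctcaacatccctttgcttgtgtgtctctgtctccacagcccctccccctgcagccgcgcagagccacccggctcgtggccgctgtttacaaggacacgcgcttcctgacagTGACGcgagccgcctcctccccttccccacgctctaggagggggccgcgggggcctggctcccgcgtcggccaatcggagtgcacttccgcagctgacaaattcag
Jun, chr4:95052223-95052472, minus strand: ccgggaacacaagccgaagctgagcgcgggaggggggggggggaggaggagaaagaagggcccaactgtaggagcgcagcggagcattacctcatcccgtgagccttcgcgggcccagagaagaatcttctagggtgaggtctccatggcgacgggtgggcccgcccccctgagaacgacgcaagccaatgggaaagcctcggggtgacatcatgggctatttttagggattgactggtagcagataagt

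The Fos window held the core at -129 and at -66 (first base, counted from the start site) and the TATA box from -33 to -28. The Fosb window held the core at -60 and the Junb window at -106. The windows of Jun, Fosl2 and Jund did not hold it, so it was present in 3 of 6 members, against 17.8% of 32851 mouse promoter windows of the same length. TATAAA was in 1 of 6 members and in 12.4% of all windows. The whole CRE (TGACGTCA), the AP-1 site itself (TGANTCA) and the CArG box were in none of the 6 windows and in 1.55%, 6.75% and 1.47% of all windows. Both strands were searched, and the core is contained in the whole CRE. The search for the core was added after these windows had been read. The RefSeq start of Jund lies 1210 bases upstream of the GENCODE start and that of Fosl2 671 bases downstream of it, so the windows of these genes may miss the promoter in use. For Junb the RefSeq start is 30 bases upstream of the GENCODE start. The serum response element of Fos lies further upstream than its window reaches, so the search did not cover it. A match is a description of the letters and not evidence of binding.

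The members differed widely in level. On the scale of RPKM (CPM divided by the summed exon length in kilobases), Jund was the most abundant, with 93.3 ± 3.06 RPKM over all 6 mice (SD, n = 6). Junb followed with 26.4 ± 3.78 RPKM, and Jun with 17.1 ± 1.57 RPKM. The Fos side was lower, with 10.2 ± 3.09 RPKM for Fos, 3.33 ± 0.765 RPKM for Fosl2 and 2.29 ± 0.534 RPKM for Fosb. Each neighbor in this order was above the next in 6 of 6 mice. The mean differences in log2 RPKM were 1.83 from Jund to Junb, 0.61 from Junb to Jun, 0.80 from Jun to Fos, 1.59 from Fos to Fosl2 and 0.54 from Fosl2 to Fosb. Each of the 5 comparisons gave p = 0.031 in a two-sided exact sign-flip permutation test over 6 mice, the smallest p that 6 mice allow, and the same value after Benjamini-Hochberg adjustment over the 5. The order was read from the means of the same mice, so this p describes the order and is no independent test of it. With the longest transcript as the length, the difference from Jun to Fos was 0.64 with Fos above Jun in control mouse 1, and its adjusted p was 0.0625 in the same exact permutation test. Fosl1, the remaining Fos gene, had 0 CPM in 4 mice and at most 0.0698 CPM in the others, and was not tested.

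Jund thus made up most of the AP-1 transcripts per length. It accounted for 59.3% ± 3.0 of the summed RPKM of the 6 genes in the controls against 63.1% ± 1.3 in ELS mice (± SD of 3 mice). The 3 Fos-side genes together accounted for 13.7%, 12.2% and 10.4% in the controls 1 to 3, and for 9.63%, 8.54% and 7.26% in the ELS mice 1 to 3. The group means were 12.1% ± 1.64 in the controls against 8.48% ± 1.19 in ELS mice (± SD of 3 mice). The groups did not overlap in this share, and Fos itself held the larger part of it, with 8.02% in control mice and 5.25% in ELS mice. The absolute shares depended on the length used, and were 14.1% and 10.2% with the longest transcripts, and 23.3% and 17.7% as shares of counts with no division by length.

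**Figure D1:**
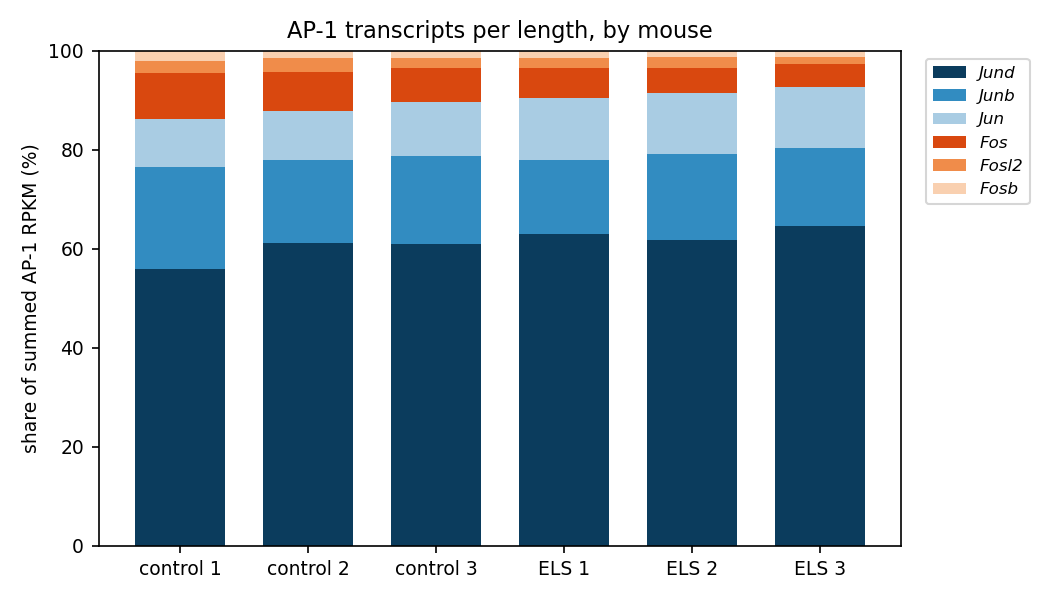
Stacked bars show, for each of the 6 mice, the share of each gene in the summed AP-1 RPKM, in percent. Jund is the largest segment in every mouse, and the orange Fos-side segments add up to between 10.4% and 13.7% in control mice and between 7.26% and 9.63% in ELS mice.

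Fos, the founding member and the most widely used marker of recently active neurons, showed the largest difference between the groups. The gene lies on chromosome 12 from 85473890 to 85477273 (plus strand, GRCm38), and its longest transcript has 4 exons. Its level was 35.1, 29.2 and 24.2 CPM in the controls 1 to 3 and 22.4, 17.4 and 15.7 CPM in the ELS mice 1 to 3. The 3 ELS mice were the lowest of the 6, although control mouse 3 and ELS mouse 1 lay close together. The log2 fold change was -0.67 (standard error 0.144), a level in ELS mice of 0.628 times that in control mice. In edgeR's quasi-likelihood test the adjusted p was 0.374, and Fos ranked 17 of 13185 genes by p. In bulk tissue, fewer cells that express a gene and less RNA per cell cannot be told apart.

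Whether Fos passed depended on the test and on 1 mouse. It passed both thresholds of the study (adjusted p under 0.05 and absolute log2 fold change above 0.3) in DESeq2, the kind of test the study used, at an adjusted p of 0.0075. It also passed in the edgeR likelihood ratio test at 0.0055, with a replicate block at 0.00673, and without control mouse 3 at 0.0172. Over all 17 alternatives its log2 fold change ran from -0.83 to -0.53, and the adjusted p reached 0.999 when ELS mouse 3 was left out. Apart from RNA-seq, the study reports that qPCR in the PFC bore out its DEGs, and it lists primers for Fos. The qPCR was not re-examined here.

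Fosb encodes a further partner of the Jun proteins and gives rise by splicing to deltaFosB, a long-lived form that builds up with repeated stimulation. It lies on chromosome 7 from 19302696 to 19310051 (minus strand), and counts per gene do not separate the 7 annotated transcripts. Its level was 20.5, 14.7 and 13.1 CPM in the controls 1 to 3 and 14.1, 12.5 and 10.8 CPM in the ELS mice 1 to 3. The groups overlapped, and control mouse 1 stood above the other 5 mice. The log2 fold change was -0.37 with a standard error of 0.155 (quasi-likelihood test of edgeR, adjusted p = 1), and -0.15 without control mouse 1.

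Fosl2 encodes Fra-2, a Fos protein that is induced later than Fos. It lies on chromosome 5 from 32135801 to 32157842 (plus strand). Its level was 40.0, 42.0 and 29.0 CPM in the controls 1 to 3 and 29.3, 30.9 and 22.3 CPM in the ELS mice 1 to 3. The groups overlapped because control mouse 3 was below ELS mice 1 and 2. The log2 fold change was -0.43 with a standard error of 0.141 (quasi-likelihood test of edgeR, adjusted p = 0.962). With 1 mouse left out it ran from -0.57 to -0.30. Fosl2 passed both thresholds without control mouse 3, at an adjusted p of 0.0479, whereas the adjusted p was at least 0.999 in each of the other 5 fits, and without ELS mouse 3 the fold change was within the threshold of 0.3.

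Junb encodes a Jun protein that is induced together with Fos and is a weaker activator than Jun. It lies on chromosome 8 from 84974484 to 84978718 (minus strand). Its level was 77.1, 60.9 and 60.6 CPM in the controls 1 to 3 and 52.7, 58.7 and 54.1 CPM in the ELS mice 1 to 3. The groups did not overlap, but ELS mouse 2 was close to control mice 2 and 3, and control mouse 1 stood apart. The log2 fold change of -0.26 with a standard error of 0.0943 (quasi-likelihood test of edgeR, adjusted p = 1) was -0.14 without control mouse 1.

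Jun, the partner that the kinase JNK activates, was higher in ELS mice. It is a gene of 1 exon on chromosome 4 from 95049034 to 95052222 (minus strand). Its level was 51.1, 49.0 and 50.8 CPM in the controls 1 to 3 and 61.3, 57.7 and 58.1 CPM in ELS mice 1 to 3. Every ELS mouse was above every control mouse, and the mice of each group lay close together. The log2 fold change was 0.23 with a standard error of 0.0654 (quasi-likelihood test of edgeR, adjusted p = 0.86), between 0.20 and 0.24 over the 17 alternatives. This is below the fold change threshold of 0.3, so that Jun could not have been called at any p.

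Jund, the most abundant member and a Jun protein found in resting cells, lies on chromosome 8 from 70698949 to 70700616 (plus strand) and has 1 exon. Its level was 152, 160 and 150 CPM in the controls 1 to 3 and 162, 152 and 159 CPM in the ELS mice 1 to 3. The groups overlapped throughout. The log2 fold change was 0.04 with a standard error of 0.0643 (quasi-likelihood test of edgeR, adjusted p = 1).

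**Figure D2:**
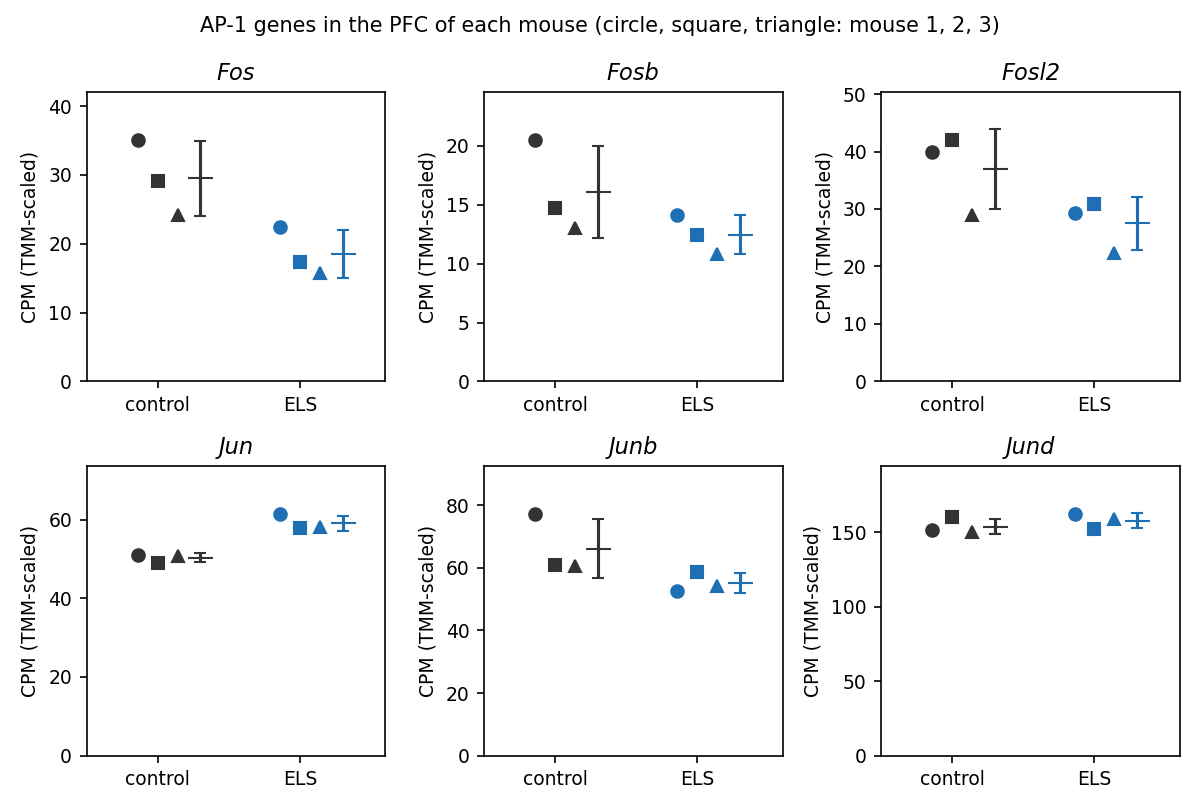
Each panel shows 1 gene, with the TMM-scaled CPM of each mouse (circle, square and triangle for mice 1, 2 and 3 of a group) and the mean ± SD of 3 mice beside the points, on axes that start at 0. Fos and Junb are lower and Jun is higher in all 3 ELS mice, with gaps between the groups that are narrow for Fos and Junb, and the other 3 genes overlap.

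Across the family, 0 of 6 members passed both thresholds in edgeR's quasi-likelihood test, where 0.0152% of all genes tested did. At an unadjusted p under 0.05 there were 5 of 6 members, against 4.23% of all genes tested. Of these, 4 were lower, against 2.34% of all genes, and 1 was higher, against 1.89%. DESeq2 and the edgeR likelihood ratio test each called 1 member, Fos, and limma-voom called 0. Of all genes, DESeq2 called 0.137%, the likelihood ratio test 0.212% and limma-voom 0.0152%. The groups did not overlap with ELS mice lower in 2 of 6 members and in 4.47% of all genes, and with ELS mice higher in 1 of 6 members and in 3.81% of all genes. Since the members were chosen with these values in view, the shares are printed beside each other and nothing is read from them. The Jun gene overlaps an antisense gene over 7.28% of its exon length, Junb overlaps the coding gene Prdx2 on the opposite strand over 7.52%, and Jund overlaps an antisense gene over 52.6%. Both library kits named for these samples mark the strand, but the strand setting of the counting is not given in the sources used here. Prdx2 had a log2 fold change of -0.03. The antisense genes over Jun and Jund were not found by their GENCODE names among the symbols of the table. What the overlap adds to or takes from the level of Jund was not tested.

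**Figure D3:**
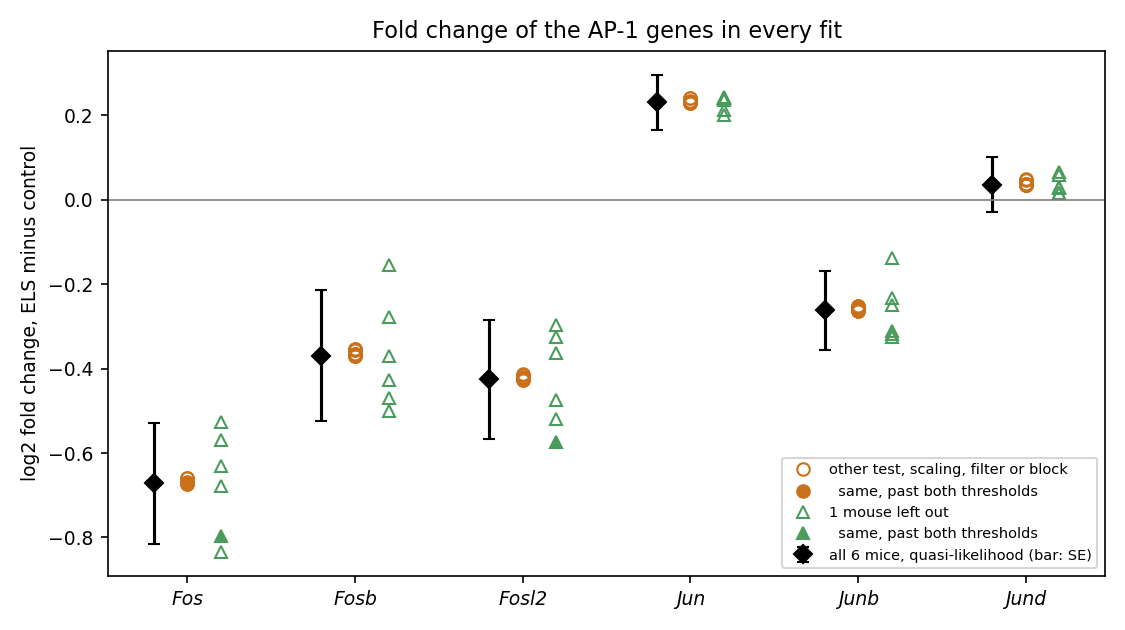
For each gene, the diamond gives the log2 fold change (ELS minus control) from all 6 mice with its standard error, circles give other tests, scalings, filters and the block, and triangles give fits with 1 mouse left out, filled where both thresholds were passed. Changing the test or scaling moved the values little, whereas leaving out 1 mouse moved Fos between -0.83 and -0.53 and Fosb between -0.50 and -0.15.

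The ratio of Fos to Jun counts within a library does not depend on how libraries are scaled. It was 0.686, 0.596 and 0.476 in the controls 1 to 3 and 0.366, 0.301 and 0.271 in the ELS mice 1 to 3. The ratio was lower in every ELS mouse than in every control mouse, as follows from the values of Fos and Jun above.

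The members also differed in how far mice of the same group lay apart, a measure that takes out the difference between the groups. The pooled SD of log2(CPM + 1) within groups was 0.254 for Fos, 0.258 for Fosb and 0.263 for Fosl2. At least 96.4% of all genes tested had a smaller SD than each of these 3 genes. Jun and Jund were at the other end, with 0.0402 and 0.0477, where 4.66% and 8.17% of genes had a smaller SD. Junb lay between them at 0.149, with 74.6% of genes below it. Counting error was small beside the spread on the Fos side, with an SD of 0.053 on the log2 scale at the mean count of Fos, and was similar to the whole spread of Jun, at 0.035. Within groups, Fos and Fosb ranked the mice in the same way. Both were highest in control mouse 1 and lowest in control mouse 3, and highest in ELS mouse 1 and lowest in ELS mouse 3. Fosl2 was highest in mouse 2 and lowest in mouse 3 of each group.

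Likeness between genes was measured as the root mean square (RMS) difference between log2(CPM + 1) profiles over the 6 mice, each centred on its mean. A profile without any change would lie 0.382 from Fos. The nearest of 13184 genes was Per2, a clock gene that also responds to activity and to glucocorticoids, at 0.0857. Serinc2 followed at 0.11, Egr1, an immediate early zinc finger gene, at 0.119, Cox6a2, a subunit of cytochrome c oxidase, at 0.141, and Sik1, a kinase gene induced by cAMP, at 0.142. The log2 fold changes of these 5 genes were -0.66, -0.65, -0.70, -0.48 and -0.50. Of the other members, Fosb came at position 11 and Fosl2 at position 20, whereas Junb came at 135, Jund at 6444 and Jun at 12179. With each group centred on its own mean, which takes out the difference between the groups, Fosb was at position 9 from Fos (RMS 0.077, against 0.207 for a flat profile) and Fosl2 at position 771 (0.161), with Junb at 2218. The 5 nearest genes were then H60b, Dact1, Dusp4, Cox6a2 and Katnal2, and only Cox6a2 of these was also among the 5 nearest with the difference left in. In that order, the log2 fold changes of H60b, Dact1, Dusp4, Cox6a2 and Katnal2 were -0.57, 0.08, -0.38, -0.48 and -0.0019. The profiles share libraries and depth, and the positions are a description of 6 mice.

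**Figure D4:**
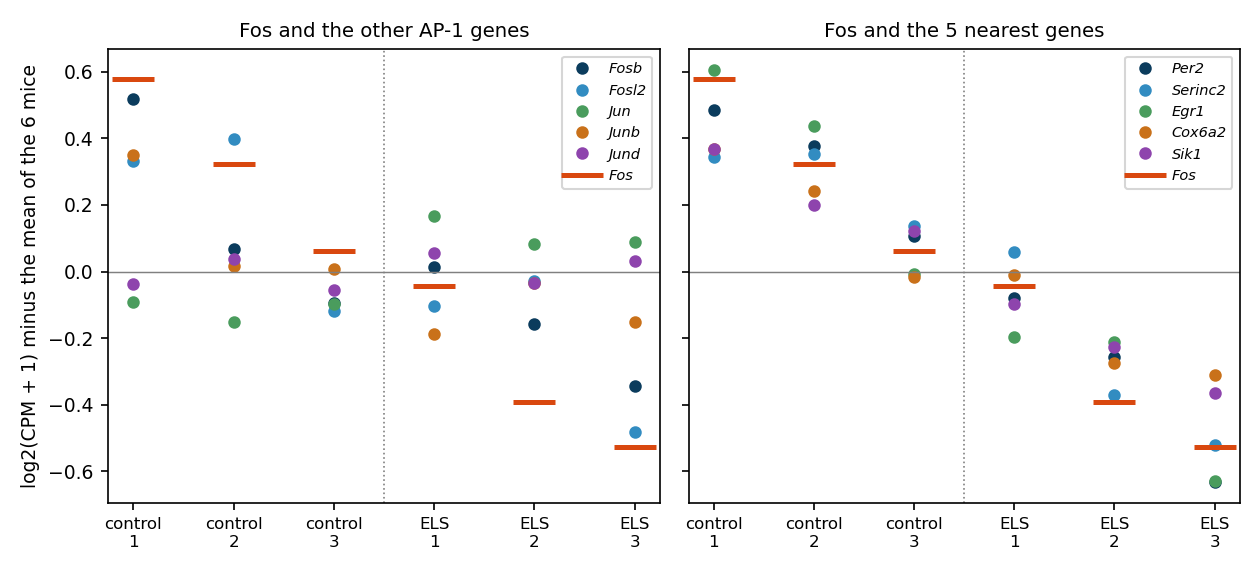
Log2(CPM + 1) of each mouse minus the mean over the 6 mice, with Fos as red dashes, for the other AP-1 genes (left) and the 5 genes nearest to Fos (right). On the left, Junb lies on the same side of 0 as Fos in 6 of the 6 mice, Fosl2 in 5, Fosb in 4, Jund in 2 and Jun in 0, and on the right the 5 nearest genes are highest in control mouse 1 or 2 and lowest in ELS mouse 3, with Egr1 above and the other 4 below Fos in control mouse 1.

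Junb had other neighbors. The nearest genes were Mamld1 (RMS 0.0562), Hcn3 (0.0588), Bcl6 (0.0605), Tcof1 (0.0622) and Taf4 (0.0674), where a flat profile would lie at 0.175. Bcl6 encodes a transcriptional repressor and Hcn3 a channel of the pacemaker family. Their log2 fold changes ran from -0.31 for Bcl6 to -0.16 for Taf4. Fos itself was at position 11691 from Junb, at 0.271. The same distance put Junb at position 135 from Fos, because the measure also counts how far a profile swings. The swing of Fos was the larger, with a flat profile at 0.382 from Fos against 0.175 from Junb. Both genes lay on the same side of 0 in 6 of 6 mice. With each group centred on its own mean the nearest genes were others, among them Plxnc1, Klhl11, Ptprf and Dnah1, and Fos was at position 9957.

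The genes around AP-1 were examined in lists, described by counts and medians beside the median of all genes tested, a log2 fold change of -0.00461, with 52.5% of all genes below 0. The lists were written with earlier results of these mice known. In none of the 6 lists did a gene pass both thresholds in that test of edgeR, where 0.0152% of all genes did.

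Other basic leucine zipper genes whose proteins can pair with Fos or Jun had a median of -0.07 over the 10 tested, with 7 below 0. Atf2, the usual partner of Jun at the Jun promoter, had a mean of 141 ± 11.3 CPM in the controls against 150 ± 10.9 CPM in ELS mice (± SD of 3 mice), a log2 fold change of 0.09. Jdp2, which represses AP-1 sites as a Jun partner, had a log2 fold change of -0.17. Of this list, 2 genes had an unadjusted p under 0.05 in the quasi-likelihood test, 1 in each direction, where 1.89% of all genes tested were higher and 2.34% lower at that p. The one above 0 was Creb5, named after its values were seen, with a mean of 4.13 ± 0.865 CPM in the controls against 6.10 ± 0.791 CPM in ELS mice (± SD of 3 mice), a log2 fold change of 0.57 and an adjusted p of 0.91. The one below 0 was Atf7, likewise named after its values were seen, with a log2 fold change of -0.22 and an adjusted p of 1 in the same test, and its values overlapped between the groups. Atf3 and Maff, stress-induced members of the list, were below the filter and not tested. Atf3 had 0.21 to 0.682 CPM over the 6 mice. Maff had 1.01, 1.38 and 1.15 CPM in the controls 1 to 3 against 0.539, 0.514 and 0.929 CPM in the ELS mice 1 to 3, so that the groups did not overlap. The filter was applied to CPM before TMM scaling, where control mouse 1 was just under 1 CPM for Maff, whereas the values printed are scaled.

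The 18 genes of the JNK, ERK and p38 kinase pathways upstream of AP-1, which include the scaffold gene Mapk8ip1, had log2 fold changes between -0.13 and 0.19, with a median of 0.02. The JNK genes Mapk8 and Mapk10 were at 0.03 and -0.03, and the ERK gene Mapk3 at 0.04. In this list 8 genes were below and 10 above 0. An unadjusted p under 0.05 in the quasi-likelihood test was reached by 1 gene, Rps6ka5, named after its values were seen, at 0.19, where 1.89% of all genes were higher at that p. Transcription factors and coactivators that act at the Fos promoter had a median of -0.03 over 17 genes, with a range from -0.18 to 0.11. Srf, the serum response factor, was at -0.05, its cofactor Elk1 at 0.11, Creb1 at 0.01 and Mef2d at -0.04. For none of these 17 genes was the unadjusted p under 0.05 in the quasi-likelihood test, and DESeq2 called 0 of them.

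Genes that remove AP-1 proteins or short-lived RNAs had a median of -0.02 over 12 genes. Fbxw7 and Itch, ubiquitin ligases that target Jun, had log2 fold changes of 0.03 and -0.08. Zfp36, which binds AU-rich elements and speeds the decay of messages such as Fos and is itself an immediate early gene, had a mean of 3.81 ± 0.399 CPM in the controls against 2.09 ± 0.127 CPM in ELS mice (± SD of 3 mice). Its log2 fold change was -0.87 with an adjusted p of 0.322 in the quasi-likelihood test, and DESeq2 called it.

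Textbook targets of AP-1 had a median of 0.08 over 13 genes, with 4 below and 9 above 0. The opioid peptide genes Penk and Pdyn had log2 fold changes of 0.34 and 0.08. Penk ranged widely, with a mean of 60.7 ± 30.9 CPM in the controls against 77.0 ± 19.5 CPM in ELS mice (± SD of 3 mice), and is abundant in striatum, whose marker genes were highest in control mouse 3 and ELS mouse 1. Their part in the Penk values was not tested. The cell cycle gene Ccnd1 was at 0.10, the AMPA receptor subunit Gria2 at 0.08 and the kinase Cdk5 at -0.03. Mmp9, a matrix protease, was below the filter, with 0.637 to 1.64 CPM.

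Other immediate early genes are induced by the same stimuli as Fos. Of 17 tested, 15 had a log2 fold change below 0, with a median of -0.36 that was -0.24 without control mouse 1, and 12 of these had an unadjusted p under 0.05 in the quasi-likelihood test, where 2.34% of all genes tested were lower at that p. In the other direction 1 gene had such a p, against 1.89% of all genes. It was Klf10, named after its values were seen, with a log2 fold change of 0.21 and no overlap between the groups. The groups did not overlap with ELS mice lower in 8 of 17, against 4.47% of all genes tested. Egr1, Nr4a1, Arc and Npas4 had log2 fold changes of -0.70, -0.46, -0.47 and -1.64, and their adjusted p by the quasi-likelihood test of edgeR were 0.322, 0.288, 0.66 and 0.111. DESeq2 called 3 of the 17, against 0.137% of all genes, namely Nr4a1, Arc and Npas4. The study had itself listed some of these genes as DEGs on the same mice, so the list is no independent evidence of a direction. The study also reports that qPCR in the PFC bore out the expression of its DEGs. Those qPCR values are not part of the counts used here.

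**Figure D5:**
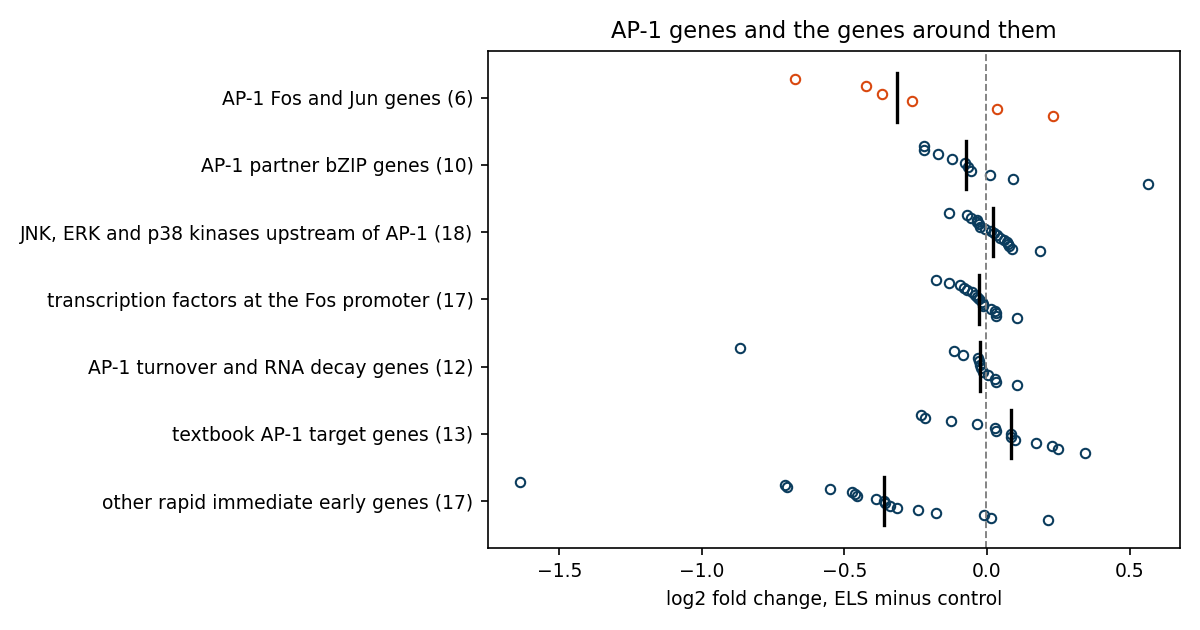
Log2 fold change (ELS minus control) of each tested gene of the AP-1 family and of the 6 lists, with the number of genes in parentheses, black bars at list medians and a dashed line at the median of all genes tested. The kinase pathway genes and promoter factors lie between -0.18 and 0.19, while 15 of the 17 immediate early genes lie below 0.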

How the data were processed

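Trimmomatic, STAR (on mm10) and HTSeq were the tools with which the authors turned paired-end reads into counts of uniquely mapped reads. The paper and the submitters' processing notes name different STAR versions (2.7.1a and HTSeq 0.9.1 in the notes), and the paper names KAPA kits where the labels name a TruSeq kit. The deposited values are raw counts per gene symbol for 6 libraries, not normalized and not pooled. ELS columns, named for social isolation, were matched by that term and their number. The table has 22000 symbols. Date-like symbols (27) and repeated ones (2) were kept as separate genes, and no member was among them.

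The filter of 1 CPM or more (before TMM scaling) in each mouse of either group left 13185 genes. Counts were compared with edgeR 4.0.16 in R 4.3.3 (TMM scaling, quasi-likelihood test, condition as the only term), and p were adjusted by the Benjamini-Hochberg method over all 13185 genes. The standard error of a fold change was taken from its F value. DESeq2 1.42.0 and limma 3.58.1 served as alternatives. Exon lengths and positions came from GENCODE M21 (GRCm38), where 89.2% of symbols were found, and promoters from RefSeq on GRCm38.p6. All 6 members matched both. The quasi-likelihood fit was also run on simulated counts, drawn with the spread that the trend over all genes gives. The spread of Fos, Fosb, Fosl2 and Junb lay above that trend, so the simulation does not speak for these genes. Same-group libraries differed by more than sampling noise (chi-square per degree of freedom at least 6.25).

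Members and lists were chosen with earlier results of these data known. Genes named were the 6 members, genes marked in each list when it was written, and the 5 nearest to Fos and to Junb under each centring. Creb5, Atf7, Rps6ka5 and Klf10 were named after their values were seen. Alternatives were other tests, scalings and filters, a block on replicate number, and fits without each mouse in turn. Values of some single genes of the lists and neighbors are not reported here.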

Additional observations from a re-analysis of the deposited data

How the results depend on the processing

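With all 6 mice, edgeR's quasi-likelihood test called 2 genes and 0 members. DESeq2 called 18 genes, the likelihood ratio test 28, the fit on all genes with at least 1 read 4 and the replicate block 7, and the members called were 1, 1, 0 and 1, in each case Fos. The other tests, scalings and filters gave 2 genes and 0 members. With a mouse left out, 1 to 29 genes and 0 to 2 members were called. The 29 genes, and Fos and Fosl2 among them, came without control mouse 3, and the cause was not tested. None of the members changed sign in any of the 17 alternatives. As the members were chosen with these values in view, this does not show stability.

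Zfp36 was called in DESeq2 and the likelihood ratio test, which gave 1 call each in the list of turnover genes. Of the immediate early genes, DESeq2 called 3, the likelihood ratio test 5, the fit on all genes with a read 1 and the replicate block 2. Of all genes tested, these fits called 0.137%, 0.212%, 0.023% (of 17357 genes) and 0.0531%. With a mouse left out, the calls were 0 to 4 for immediate early genes and 0 to 1 for AP-1 targets, where Penk was called without control mouse 3. That fit called 0.219% of all genes tested, and the other fits with a mouse left out called 0.00754% to 0.00757%. The median of the immediate early genes ran from -0.473 to -0.238 over the fits with a mouse left out.

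Same-numbered mice had correlations of their deviations of -0.164, 0.258 and -0.0355, so the numbers were not taken to pair the mice. The replicate block changed no call of a member other than Fos.

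The order of mean levels per length was the same under every length, scaling and left-out mouse. With 5 mice no p could fall below 0.0625. The differences then ran from 1.785 to 1.913 (Jund to Junb), 0.525 to 0.687 (Junb to Jun), 0.669 to 0.937 (Jun to Fos), 1.54 to 1.668 (Fos to Fosl2) and 0.473 to 0.582 (Fosl2 to Fosb). With the longest transcript, Jun to Fos was 0.64. The Fos-side share was 14.1% in control and 10.2% in ELS mice with that length, and 23.3% and 17.7% as a share of counts.

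At this depth the counting error had an SD of 0.021 to 0.068 on the log2 scale for the 6 members.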
